A study of Mus musculus with 22 samples.

Results

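The endothelial cells of the aorta-gonad-mesonephros (AGM) region that carry no CD44 at their surface were compared between embryonic day 10 (E10) and E9.5. The comparison was set by the sort and the stage alone and held 7 of the 22 bulk RNA-seq libraries of the series, 3 at E10 (replicates 8, 9 and 10) and 4 at E9.5 (replicates 4, 5, 6 and 7). Each library was made from 25 VE-Cadherin-positive, CD44-negative cells (CD44Neg) of C57BL/6 embryos, whose labels name no transgene, culture or treatment. The other 15 libraries hold CD44Neg cells at E11 and the CD44LowKitNeg, CD44LowKitPos and CD44High populations of the same region. The labels do not say whether replicates came from separate embryos or litters, so p-values measure the spread between these libraries only. The date in the labels also changes with the stage, so the stage and the date cannot be told apart.

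The AGM is where definitive blood stem and progenitor cells arise in the mid-gestation embryo, out of a small set of endothelial cells in the wall of the dorsal aorta. CD44, a receptor of the matrix sugar hyaluronan, marks cells on the way from endothelium to blood, while the CD44Neg cells are the vessel lining that lacks it. Growing vessels are lined outside by a basement membrane, a sheet of collagen IV, laminins and perlecan under the endothelium.

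The libraries held 4049022 to 7132809 counts and 10825 to 11951 detected genes. Neither total counts (two-sided exact permutation p = 0.343), detected genes (p = 0.743) nor the share of the ribosomal precursor *Rn45s*, 1.92% to 13.8% at E9.5 and 9.12% to 19.4% at E10 (p = 0.343), passed a test that could not go below 0.0571 with 3 against 4 libraries. E9.5 replicate 6 stood apart, with the fewest genes and the lowest *Rn45s* share, and counts of replicate pairs differed by 17.1 to 85.2 times the sampling variance. All 9 endothelial markers were present in every library, with a summed level of 3359 to 3939 normalized CPM (counts scaled to library size) at E9.5 and 4300 to 5089 at E10. Of the erythroid, macrophage, mesenchymal, neural, smooth muscle, epithelial and germ cell marker lists, *Ptprc*, *Csf1r*, *Gata1*, *Col1a1*, *Sox2*, *Myh11* and *Cdh1* had no count in any of the 7. Other members of these lists were present, with a highest level in a single library of 113 normalized CPM for *Nes* (neural list), 104 for *Acta2* (smooth muscle), 72.7 for *Tfrc* (erythroid), 54.3 for *Sall4* (germ cell), 41.5 for *Laptm5* (macrophage and blood), 33.6 for *Krt18* (epithelium) and 23.2 for *Col3a1* (mesenchyme). All 7 libraries held both *Xist*, 143 ± 74.0 (SD, n = 4) at E9.5 and 241 ± 21.8 (n = 3) at E10, and Y-linked transcripts, 75.8 ± 15.1 and 181 ± 87.9 normalized CPM (exact permutation p = 0.0571 and 0.114, two-sided).

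The sorting markers came first. *Cdh5*, which encodes VE-Cadherin, lay between 191 and 301 normalized CPM at E9.5 and at 312, 465 and 633 at E10, with no overlap and a log2 fold change of 1.06 ± 0.24 (SE) that did not pass the threshold (edgeR quasi-likelihood test, adjusted p = 0.0973). *Cd44* lay at 41.5 ± 18.3 and 31.5 ± 20.5 normalized CPM and *Kit*, the stem cell factor receptor, at 43.1 ± 9.57 and 44.6 ± 23.0, and both overlapped between stages.

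Over the whole transcriptome the mean Euclidean distance on log2 CPM was 153 between libraries of different stages, 156 within E10 and 132 within E9.5. Distances between stages exceeded those within a stage by 13 on average over library pairs, the largest value among the 35 ways to assign 3 libraries to E10 (one-sided exact permutation p = 0.0286, the smallest possible). The mean distance within E10 exceeded that between the stages, and 4 of 7 libraries had a library of their own stage nearest to them. Of 10725 genes tested, edgeR called 15 higher at E10 (0.14%) and 9 lower (0.0839%) at an adjusted p below 0.05. Before adjustment, 679 (6.33%) were higher and 782 (7.29%) lower with p below 0.05, and the median log2 fold change was 0.02. With the Wald test of DESeq2, 192 (1.83%) were called higher and 225 (2.14%) lower, including all 24 genes. The number of calls changed with each library left out: edgeR called none without E9.5 replicate 4 (1078 at an unadjusted p below 0.05) or without replicate 7 (1181), 4 without replicate 5 and 13 without replicate 6, and 1, 1 and 7 without E10 replicates 8, 9 and 10. Of the 24, 3 were called without replicate 5, 11 without replicate 6, 1 each without replicates 8 and 9 and 5 without replicate 10, with *Cotl1* called in 3 of these 7 fits and no other gene in more than 2. All 24 kept their direction in each of these fits, which leaving out 1 library could hardly change because their stages did not overlap.

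**Figure D1:**
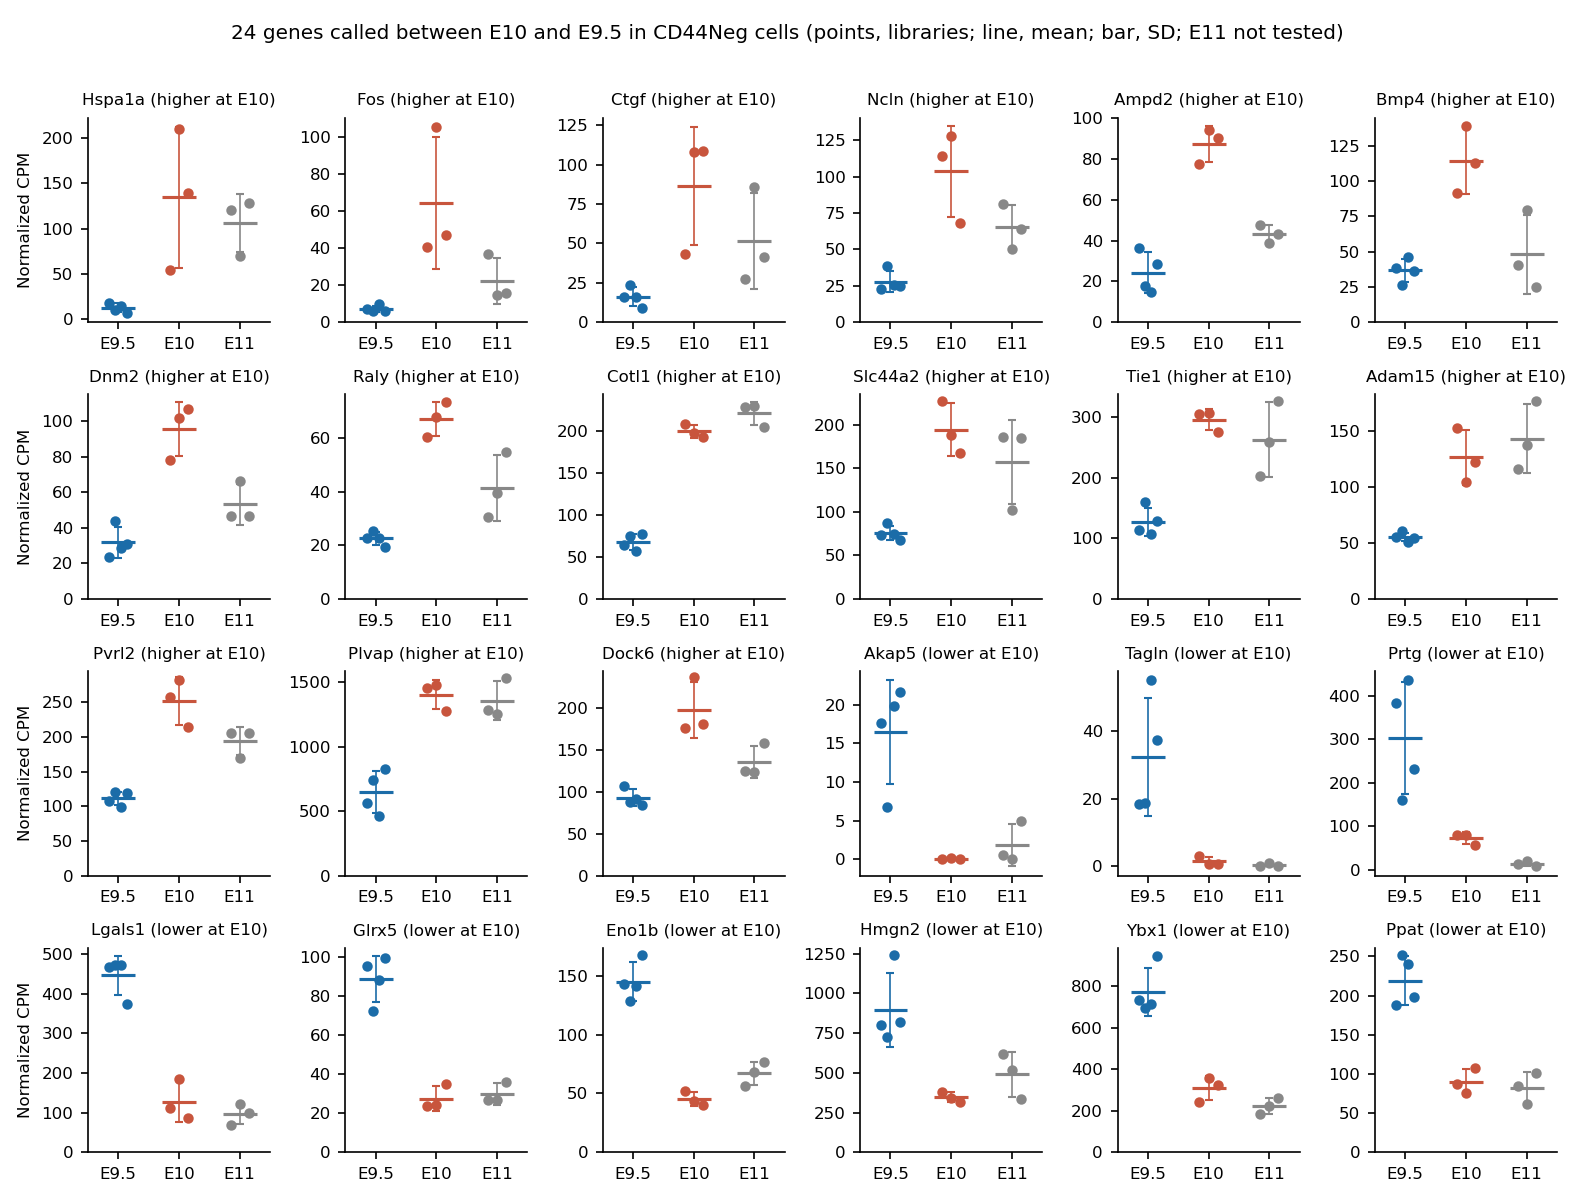
Normalized CPM (vertical axes) of the 24 called genes in each CD44Neg library at E9.5, E10 and E11 (horizontal axes). Points are libraries, horizontal lines means and bars the SD. The 3 E10 libraries sit above all 4 E9.5 libraries for 15 genes and below them for 9, and the E11 libraries entered no test.

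The libraries of the 2 stages did not overlap for any of the 24 called genes, while over all tested genes every E10 library lay above every E9.5 library for 684 (6.38%) and below for 1066 (9.94%).

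The pan-endothelial list held 2 of the 15 increased genes. *Tie1*, an endothelial receptor tyrosine kinase of the angiopoietin system (chr4:118471191-118489849, mm10), lay at 114, 159.5, 108 and 128 normalized CPM in E9.5 replicates 4 to 7 and at 305, 308 and 276 in E10 replicates 8 to 10. It rose by 1.29 ± 0.19 on the log2 scale (edgeR adjusted p = 0.0304), and the E10 libraries were close together. *Plvap*, the protein of the diaphragms that close endothelial fenestrae and caveolae (chr8:71497753-71511806), lay at 566, 740.4, 459 and 823 at E9.5 and at 1454, 1475 and 1273 at E10, a rise of 1.19 ± 0.19 (adjusted p = 0.0375). Outside that list, *Pvrl2*, the junctional adhesion molecule nectin-2, rose by 1.25 ± 0.19 (adjusted p = 0.0304), from 111 ± 9.88 to 251 ± 34.3. *Adam15*, a membrane metalloprotease, rose by 1.27 ± 0.22 (adjusted p = 0.0498). *Dock6*, an exchange factor for the GTPases Rac1 and Cdc42 that act on the actin cytoskeleton, rose by 1.17 ± 0.20 (adjusted p = 0.0498). With offsets for GC content and transcript length, chosen after seeing the data, all 5 kept their direction and none passed the threshold.

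Of the 28 pan-endothelial genes, *Tie1* and *Plvap* were called, none fell by the test, and the median log2 fold change was 0.25 against 0.02 over all genes. Before adjustment, 10 of the 28 were higher and 4 lower at E10. DESeq2 called 7 higher and 2 lower. *Robo4*, a guidance receptor that stabilizes vessels, had 19.8, 73.1, 9.71 and 18.6 normalized CPM at E9.5 and 161, 177 and 98.6 at E10 (log2 fold change 2.35 ± 0.55, edgeR adjusted p = 0.103). *Eng*, the TGF-beta co-receptor endoglin, had 266 ± 66.2 and 438 ± 11.3 (0.79 ± 0.19, adjusted p = 0.106). *Egfl7*, a secreted endothelial matrix protein, had 882 ± 100.1 and 1269 ± 396.7 (0.60 ± 0.20, adjusted p = 0.207). Of the 28, 7 had a negative log2 fold change and none of these passed after adjustment. The 4 with an unadjusted p below 0.05 were *Ets1*, an endothelial transcription factor (-0.88 ± 0.28, adjusted p = 0.188), *Lmo2*, a transcriptional adaptor shared with blood (-0.66 ± 0.25, adjusted p = 0.273), *Cd93*, a surface glycoprotein (-0.48 ± 0.15, adjusted p = 0.186), and *Fli1*, an ETS factor (-0.61 ± 0.25, adjusted p = 0.312).

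Genes of venous and lymphatic endothelium had the highest median of the lists, 0.97 over 10 tested members, although edgeR called none. Before adjustment 5 of the 10 were higher and none lower, and DESeq2 called those 5. The 5 were *Stab1*, *Stab2*, *Ephb4*, *Aplnr* and *Nrp2*, and in each the stages did not overlap. *Stab1*, the scavenger receptor stabilin-1, lay at 144, 184, 76.5 and 149 normalized CPM at E9.5 and at 370.5, 421 and 293 at E10 (log2 fold change 1.47 ± 0.26, edgeR adjusted p = 0.0522). *Stab2*, its relative and a hyaluronan receptor, lay at 21.3 ± 9.53 and 70.1 ± 27.7 (1.79 ± 0.45, adjusted p = 0.112). *Ephb4*, the venous partner of the arterial ligand ephrin-B2, lay at 56.0 ± 6.16 and 121 ± 35.4 (1.19 ± 0.25, adjusted p = 0.0881). *Aplnr*, the apelin receptor, had 382 ± 47.7 and 609.9 ± 145.6 (0.75 ± 0.18, adjusted p = 0.105), and *Nrp2*, a co-receptor of VEGF-C, had 42.6 ± 18.7 and 98.1 ± 26.3 (1.29 ± 0.35, adjusted p = 0.143). *Flt4*, the VEGF-C receptor and the other member with the most counts, had 255 ± 59.6 and 319 ± 52.7 and overlapped. The remaining members overlapped too. *Nr2f2*, a venous marker in the paper, had a log2 fold change of 0.25 ± 0.36 (edgeR adjusted p = 0.84). The values were 0.13 ± 0.29 for *Dab2*, 1.67 ± 1.81 for *Prox1* and -0.59 ± 1.07 for *Lyve1*. Without replicate 9 the median of the list was 0.56. In bulk libraries, more cells of a type and more RNA per cell cannot be told apart.

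Among 20 arterial genes none was called, 3 were higher before adjustment, and the median was 0.32. *Nrp1*, a VEGF co-receptor, had 425 ± 51.9 and 384 ± 63.7 normalized CPM and *Gja4*, the arterial connexin 37, 273 ± 114 and 292 ± 57.1, and both overlapped. *Bmx*, an arterial tyrosine kinase, had 8.80 ± 5.12 and 35.5 ± 22.1 (log2 fold change 2.08 ± 0.70, edgeR adjusted p = 0.222). Of 19 Notch pathway genes, which set arterial identity, none was called and 3 were higher before adjustment, with a median of 0.27. The receptor *Notch1* had 88.6 ± 52.7 and 139 ± 40.6 and overlapped.

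No basement membrane gene was called. Of 21 tested collagen, laminin and related matrix genes, 10 were higher and 1 lower before adjustment, DESeq2 called 6 higher and none lower, and the median log2 fold change was 0.51. *Col18a1*, the source of endostatin, lay at 149.7, 277, 189 and 184 normalized CPM at E9.5 and at 416, 457 and 373 at E10 (1.13 ± 0.21, edgeR adjusted p = 0.0596). *Hspg2*, which encodes perlecan, had 39.3 ± 11.3 and 93.1 ± 18.5 (1.32 ± 0.29, adjusted p = 0.0923). *Col15a1* had 6.41 ± 2.65 and 33.6 ± 16.8 (2.47 ± 0.55, adjusted p = 0.0923). For the chains of collagen IV that form the core of the sheet, the log2 fold change was 0.69 ± 0.18 for *Col4a1* (adjusted p = 0.124) and 0.94 ± 0.25 for *Col4a2* (adjusted p = 0.129), and for *Sparc*, a collagen-binding protein, it was 0.47 ± 0.14 (adjusted p = 0.173). For these 6 genes the E10 libraries lay above all E9.5 libraries. The 1 member lower before adjustment was another collagen IV chain, *Col4a5*, with a mean of 3.04 normalized CPM at E9.5 and no count at E10 (edgeR adjusted p = 0.206).

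The VEGF and tip cell list shares *Tie1*, the collagen IV chains, *Aplnr* and *Nrp2* with the lists above. It held 8 of 23 members higher and 1 lower before adjustment, with 1 call and a median of 0.40. The adhesion list had no call in 19 genes and 6 higher before adjustment, with a median of 0.06. *Icam1*, which binds leukocyte integrins, had 64.6 ± 16.1 and 148 ± 31.1 normalized CPM (1.27 ± 0.26, edgeR adjusted p = 0.0708). Its companions with the most counts, the integrin chain *Itgb1* (0.29 ± 0.15) and the junction protein *Esam* (0.61 ± 0.18), were not called. Of 13 shear stress genes, which respond to flow, 3 were higher before adjustment and none was called, with *Pecam1*, a flow sensor at junctions, at 413 ± 39.9 and 553 ± 149.9 and *Slc9a3r2* at 144 ± 30.3 and 129.96 ± 37.4.

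*Bmp4* and *Ctgf*, which encode secreted proteins, were also called. *Bmp4*, a bone morphogenetic protein ligand required for blood formation in the embryo (chr14:46383525-46390669), lay at 38.4, 26.4, 46.3 and 36.0 normalized CPM at E9.5 and at 91.6, 139 and 113 at E10. It rose by 1.71 ± 0.27 on the log2 scale (edgeR adjusted p = 0.0375). *Ctgf*, a matrix protein also known as a target of the YAP coactivator, lay at 16.3, 23.5, 16.2 and 8.99 at E9.5 and at 43.5, 108 and 109 at E10, a rise of 2.49 ± 0.41 (adjusted p = 0.0473). The stages did not overlap for either gene. Of the 26 tested genes of the BMP and TGF-beta pathway, *Bmp4* was the 1 called, 3 were higher and 4 lower before adjustment, and the median was -0.05. *Id1*, a direct target of BMP signals, had 178 ± 28.6 at E9.5 and 84.2 ± 63.2 at E10 (-1.02 ± 0.38, edgeR adjusted p = 0.267). Its E10 libraries lay at 50.7, 44.8 and 157, with overlap. Of 22 WNT pathway genes none was called, 2 were higher and 4 lower before adjustment, and the effector *Ctnnb1* had 637 ± 37.5 and 569 ± 217.8. The kinase *Gsk3b* had 586 ± 351 and 266 ± 93.5 (-1.08 ± 0.38, adjusted p = 0.236).

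Among the 15 increased genes, the 2 with the largest log2 fold change were *Hspa1a* and *Fos*. *Hspa1a*, an inducible HSP70 chaperone, lay at 18.2, 10.2, 14.8 and 7.07 normalized CPM at E9.5 and at 54.4, 209.8 and 139 at E10. It rose by 3.50 ± 0.46 on the log2 scale (edgeR adjusted p = 0.0304), and the E10 libraries spread widely while staying above all E9.5 libraries. *Fos*, an immediate-early transcription factor of the AP-1 complex, lay at 7.25, 6.05, 9.71 and 6.04 at E9.5 and at 40.3, 105 and 47.2 at E10, a rise of 3.22 ± 0.44 (adjusted p = 0.0304). Heat shock genes are switched on by heat shock factor at paired GAA blocks upstream of their start, so the 250 bases before the start of *Hspa1a*, of its near-identical copy *Hspa1b* and of the small chaperone gene *Hspb1* follow, with each GAANNTTC in capitals, beside those of *Fos*, with TATAAA in capitals (RefSeq sequences of GRCm38.p6, 5′ to 3′ on the strand of the gene).
Hspa1a, chr17:34972157-34972406, minus strand: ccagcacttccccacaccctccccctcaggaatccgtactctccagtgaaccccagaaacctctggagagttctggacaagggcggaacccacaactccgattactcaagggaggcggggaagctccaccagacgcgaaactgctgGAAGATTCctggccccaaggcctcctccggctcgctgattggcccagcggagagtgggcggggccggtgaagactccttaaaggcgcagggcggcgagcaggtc
Hspa1b, chr17:34959239-34959488, minus strand: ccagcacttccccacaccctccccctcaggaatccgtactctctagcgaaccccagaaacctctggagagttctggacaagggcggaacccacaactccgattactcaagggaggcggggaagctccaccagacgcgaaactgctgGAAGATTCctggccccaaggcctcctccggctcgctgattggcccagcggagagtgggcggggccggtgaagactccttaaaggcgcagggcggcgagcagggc
Hspb1, chr5:135887669-135887918, plus strand: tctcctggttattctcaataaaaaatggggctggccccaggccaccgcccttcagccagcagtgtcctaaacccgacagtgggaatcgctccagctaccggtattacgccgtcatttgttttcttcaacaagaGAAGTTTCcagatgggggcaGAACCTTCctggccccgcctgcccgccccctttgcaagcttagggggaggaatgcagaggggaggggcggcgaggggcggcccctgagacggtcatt
Fos, chr12:85473640-85473889, plus strand: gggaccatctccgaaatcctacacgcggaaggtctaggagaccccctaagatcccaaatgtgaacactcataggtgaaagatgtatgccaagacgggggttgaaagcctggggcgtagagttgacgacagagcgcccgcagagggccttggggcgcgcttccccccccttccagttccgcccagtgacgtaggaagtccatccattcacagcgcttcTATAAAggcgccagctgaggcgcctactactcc
The block ran from 104 to 97 bases before the start in *Hspa1a* and *Hspa1b*, whose windows were identical at 247 of 250 bases, and *Hspb1* held 2 blocks, from 117 to 110 and from 97 to 90 bases. On either strand, the motif occurred in 6.69% of 32851 promoter windows of this length, in 6 of the 12 heat shock genes with a window and in 1 of 18 called genes with a window. The heat shock genes printed here are those with a rise at an edgeR unadjusted p below 0.05. The motif also stood before *Hspd1*, *Hspe1* and *Dnaja1*, which had no such rise. TATAAA stood 33 to 28 bases before the start of *Fos* and occurred in 12.4% of windows. The motifs do not overlap, and a match is a description of the letters only.

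*Hspb1* lay at 4.12, 5.57, 10.3 and 2.65 normalized CPM at E9.5 and at 15.3, 39.4 and 69.3 at E10 (log2 fold change 2.93 ± 0.63, edgeR adjusted p = 0.0888). *Hspa1b*, the near-identical copy of *Hspa1a*, had 3.74 ± 2.07 and 23.6 ± 26.2 (2.75 ± 0.84, edgeR adjusted p = 0.176). Its E10 libraries lay at 9.98, 53.8 and 7.06, so the E10 mean rests largely on replicate 9. How reads that match both copies were counted is not given in the sources used here, so the values of both genes are uncertain. Other chaperones lay on the opposite side. *Hspa8*, the constitutive HSP70, had 4661 ± 625 and 2872 ± 361 (-0.62 ± 0.14, adjusted p = 0.0953), *Hspa5*, the chaperone of the endoplasmic reticulum, 2491 ± 273 and 1555 ± 229.6 (-0.61 ± 0.14, adjusted p = 0.102), and *Hsph1*, an HSP110 chaperone, 296 ± 57.1 and 149 ± 42.5 (-0.92 ± 0.23, adjusted p = 0.12). In all, 3 of 16 heat shock genes were higher and 5 lower before adjustment, DESeq2 called 3 higher and 4 lower, and the median was -0.16.

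Of 23 immediate-early genes, which are induced within minutes of a stimulus without new protein synthesis, *Fos* was called, 7 were higher and none lower before adjustment, DESeq2 called 3 higher, and the median was 0.42. *Jun*, the partner of *Fos*, had 15.3 ± 8.15 and 59.96 ± 28.95 normalized CPM (log2 fold change 2.05 ± 0.51, edgeR adjusted p = 0.108), and *Junb* 9.69 ± 5.49 and 34.2 ± 15.8 (1.89 ± 0.56, adjusted p = 0.173). *Egr1*, a zinc finger factor of the same response, had 3.06 ± 4.44 and 25.7 ± 32.5, with overlap, and its E10 libraries spread from 2.15 to 62.8.

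The other 6 increased genes were *Cotl1*, *Slc44a2*, *Dnm2*, *Raly*, *Ampd2* and *Ncln*. *Cotl1*, an actin-binding protein of the cofilin family, lay at 63.7, 75.3, 56.8 and 76.6 normalized CPM at E9.5 and at 208, 198 and 192 at E10, the smallest p of the comparison (log2 fold change 1.62 ± 0.20, edgeR adjusted p = 0.0304). *Slc44a2*, a choline transporter-like protein, rose by 1.43 ± 0.20 (adjusted p = 0.0304), from 75.8 ± 8.19 to 195 ± 30.4. *Dnm2*, the GTPase that cuts endocytic vesicles, rose by 1.66 ± 0.29 (adjusted p = 0.0498), *Raly*, an RNA-binding protein, by 1.64 ± 0.29 (adjusted p = 0.0498), *Ampd2*, an AMP deaminase, by 1.93 ± 0.34 (adjusted p = 0.0498), and *Ncln*, a membrane protein of the endoplasmic reticulum, by 1.98 ± 0.31 (adjusted p = 0.0375). For these 4 the E9.5 libraries lay between 14.6 and 43.8 and the E10 libraries between 60.5 and 128 normalized CPM.

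*Prtg*, protogenin, an immunoglobulin superfamily receptor of early embryos, lay at 383, 159.5, 436 and 230.5 normalized CPM at E9.5 and at 79.7, 79.5 and 55.6 at E10 (log2 fold change -2.0 ± 0.34, edgeR adjusted p = 0.0473). *Hmgn2*, a nucleosome-binding protein, lay at 802, 725, 1241 and 819 at E9.5 and at 382, 345 and 319 at E10, a log2 fold change of -1.29 ± 0.20 (adjusted p = 0.0375). *Ybx1*, a Y-box protein that binds DNA and mRNA, lay at 730.2, 692, 716 and 945 and at 243, 358 and 325 (-1.24 ± 0.18, adjusted p = 0.0304). *Lgals1*, the glycan-binding galectin-1, lay at 466, 473, 472 and 374 and at 112, 186 and 86.2 (-1.72 ± 0.26, adjusted p = 0.0306). All E10 libraries lay below all E9.5 libraries for these 4 genes, and the E9.5 libraries of *Prtg* spread widely.

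*Ppat*, which catalyses the first committed step of purine synthesis, fell by 1.21 ± 0.21 on the log2 scale (edgeR adjusted p = 0.0498), from 219 ± 31.2 to 90.4 ± 16.6 normalized CPM. *Glrx5*, a mitochondrial glutaredoxin of iron-sulfur cluster assembly, fell by 1.62 ± 0.27 (adjusted p = 0.0494), from 89.0 ± 12 to 27.6 ± 6.24. *Eno1b*, a copy of the enolase gene *Eno1*, fell by 1.60 ± 0.22 (adjusted p = 0.0304), from 145 ± 16.3 to 45.5 ± 6.10. Its call is uncertain because reads of *Eno1* can fall on it, and *Eno1* itself had 5.67 ± 1.70 and 3.16 ± 1.37. Among 22 glycolysis genes none was called by edgeR, 2 were higher and 5 lower before adjustment, DESeq2 called none higher and 3 lower, and the median was -0.08. Those 3 were *Pgk1*, phosphoglycerate kinase (-1.05 ± 0.20, edgeR adjusted p = 0.0615), *Aldoa*, aldolase (-0.58 ± 0.12, adjusted p = 0.0881), and *Hk2*, a hexokinase (-1.71 ± 0.40, adjusted p = 0.103). *Ldha*, which makes lactate, had 2659 ± 318 and 1992 ± 200.8 and also did not overlap (-0.34 ± 0.13, adjusted p = 0.273).

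In 2 of the called genes the counts at E10 were near 0. *Akap5*, a scaffold that anchors protein kinase A, lay at 17.6, 6.78, 19.8 and 21.7 normalized CPM at E9.5, and the 3 E10 libraries held 1 count in all (edgeR adjusted p = 0.0473). The ratio of E9.5 to E10 was 248 with a 95% exact counting interval of 44.3 to 9840. Such intervals cover counting error only, not the spread between libraries. *Tagln*, the actin-binding transgelin of smooth muscle, lay at 18.4, 18.6, 55.3 and 37.4 at E9.5 and at 2.94, 0.643 and 0.662 at E10. The ratio was 23.0 (14.9 to 37.4) and the log2 fold change -4.42 ± 0.78 (edgeR adjusted p = 0.0498). Limma voom called neither gene (adjusted p = 0.132 for *Akap5* and 0.201 for *Tagln*). Neither was called by edgeR in any fit that left out 1 library. The summed smooth muscle and pericyte markers, 10 in all, spanned 21.8 to 134 normalized CPM at E9.5 and 4.5 to 108.5 at E10, 4 of them (*Myh11*, *Cspg4*, *Kcnj8*, *Myocd*) had no count, and the part of such cells in the *Tagln* difference was not tested. *Gpc3*, a membrane proteoglycan, had 407 counts over the E9.5 libraries and 6 over those of E10 and was not called (edgeR adjusted p = 0.0596).

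**Figure D2:**
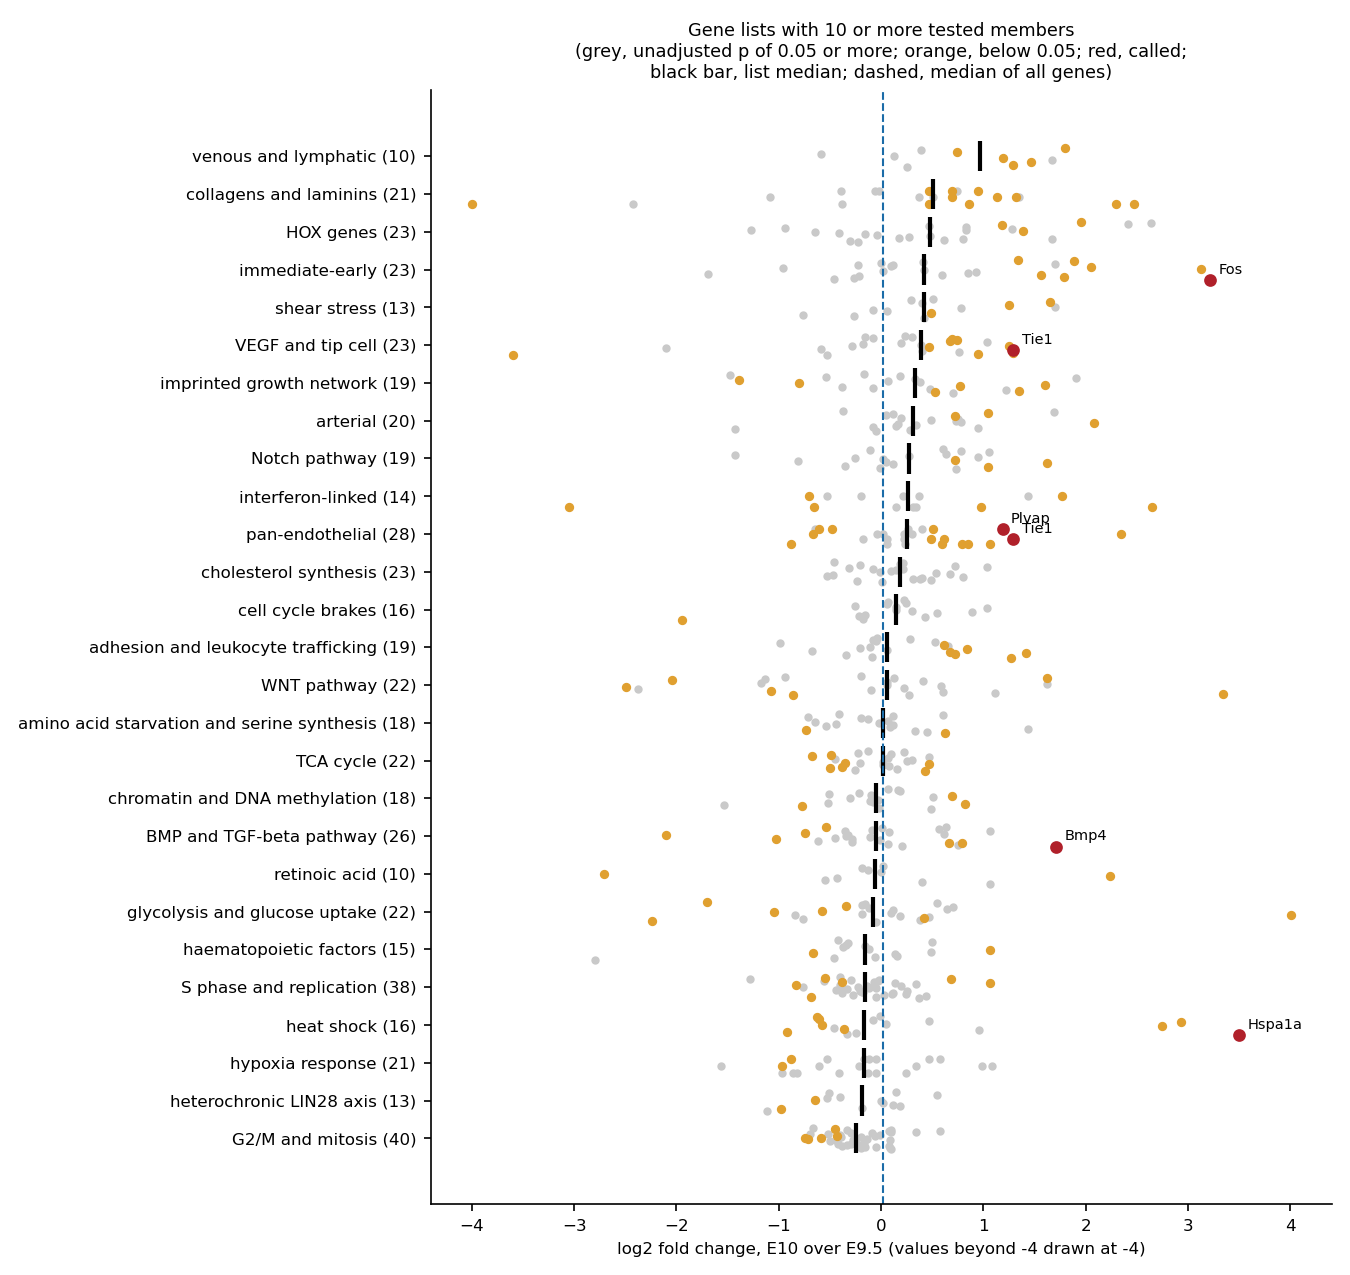
Log2 fold change of E10 over E9.5 (horizontal axis) for the tested members of each list with 10 or more of them (vertical axis, number in parentheses). Points are genes, red where called, black bars list medians and the dashed line the median of all genes. The venous and lymphatic list has the highest median, 0.97, and the G2/M list the lowest, -0.25.

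No gene of the blood formation list was called. Of 15 haematopoietic factors tested, 1 was higher and 1 lower before adjustment, with a median of -0.15 that moved to -0.53 without replicate 10. *Runx1*, the factor required for blood to arise from endothelium, lay at 22.2, 2.42, 11.6 and 16.7 normalized CPM at E9.5 and at 5.09, 0.214 and 0 at E10, with overlap (edgeR adjusted p = 0.395). *Gata2*, another such factor, had 14.0 ± 4.92 and 28 ± 5.14 and *Cbfb*, the cofactor of *Runx1*, 120.1 ± 18.3 and 83.6 ± 26.1, neither of them called. The summed erythroid markers were 45.2 to 87.6 at E9.5 and 24.4 to 66.2 at E10, with 10 of 17 at 0, and the macrophage and blood markers 15.9 to 24.9 and 23.1 to 43.3, with 9 of 15 at 0.

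Genes of embryonic timing and position were not called either. Of 13 members of the LIN28 axis, an RNA-binding programme of early embryos, none was higher and 2 were lower before adjustment. *Hmga2*, a chromatin protein under let-7 control, had 231 ± 45.8 and 112 ± 25.1 normalized CPM (-0.97 ± 0.24, edgeR adjusted p = 0.105), and *Lin28b* 75.4 ± 12 and 46.0 ± 6.14 (-0.64 ± 0.26, adjusted p = 0.291). *Igf2bp3* had 250.3 ± 42.5 and 181 ± 6.17, and for all 3 every E10 library lay below every E9.5 library. Of 23 HOX genes and partners, which encode position along the trunk, 3 were higher before adjustment with a median of 0.47, which was 0.01 without replicate 9. *Hoxa9* had 22.2 ± 6.66 and 47.8 ± 2.99 (1.18 ± 0.35, adjusted p = 0.173) and *Hoxb7* 10.6 ± 4.96 and 39.3 ± 8.38 (1.95 ± 0.47, adjusted p = 0.105). *Cyp26a1*, which degrades retinoic acid, had 29.1 ± 8.16 and 4.19 ± 2.26 (-2.71 ± 0.59, adjusted p = 0.0888) in a list of 10 with 1 gene on either side before adjustment.

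No gene of the proliferation lists was called. Of 40 G2/M genes, 5 were lower and none higher before adjustment, and the median was -0.25. The histone mRNA regulator *Slbp* had 350.2 ± 69.4 and 187 ± 28.7 normalized CPM (-0.83 ± 0.20, edgeR adjusted p = 0.105), whereas *Mcm7*, part of the replicative helicase, had 167 ± 32.5 and 256 ± 11.7 (0.69 ± 0.19, adjusted p = 0.143), in an S phase list of 38 with 2 higher, 4 lower and a median of -0.16. *Rrm2* (-0.54 ± 0.18), *Mcm6* (-0.38 ± 0.17), *Cks1b* (-0.43 ± 0.16) and *Hmgb2* (-0.45 ± 0.19), the members of these lists with the most counts, were not called. *Trp53* and *Cdkn1c* of the 16 cell cycle brakes overlapped between stages. In the imprinted growth network, 4 of 19 genes were higher and 2 lower before adjustment. *H19*, a maternal growth-limiting RNA, had 526 ± 99.8 and 850.3 ± 266, *Igf2*, its paternal neighbour and a growth factor, 799.6 ± 345 and 1237 ± 310.3, and *Mest* 4484 ± 807 and 4857 ± 1184, all with overlap, while *Peg3* had 262 ± 48.5 and 143 ± 2.5 without (-0.80 ± 0.19, adjusted p = 0.105).

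The other pathway lists had no call. The TCA cycle (22 genes, median 0.02) included *Mdh2*, a malate dehydrogenase, at 738 ± 141 and 439 ± 58.3 normalized CPM (-0.68 ± 0.18, edgeR adjusted p = 0.136) and *Idh2* at 462 ± 60.5 and 461 ± 57.5. The hypoxia response (21, median -0.17) was led in counts by the glucose transporter *Slc2a1*, 711 ± 56.2 and 655 ± 77.4, and by *Hif1a*, 276 ± 38.9 and 241 ± 58.3. In cholesterol synthesis (23, median 0.18) no gene reached an unadjusted p below 0.05 on either side. Amino acid starvation genes (18, median 0.02) included the asparagine synthetase *Asns*, 179 ± 6.84 and 102 ± 22.5 (-0.73 ± 0.20, adjusted p = 0.144), and *Psat1*, 194 ± 28.2 and 139.8 ± 27.6. Of interferon-linked genes (14, median 0.26), *Ifitm2* had 432 ± 36.2 and 252 ± 26.7 (-0.70 ± 0.16, adjusted p = 0.0973) and *B2m* 376 ± 35.3 and 314 ± 51.3. Of chromatin genes (18, median -0.05), the remodeller *Smarca4* had 154 ± 39.2 and 257 ± 70.9 (0.82 ± 0.25, adjusted p = 0.173) and *Hdac1* 198 ± 8.70 and 185 ± 44.4. The marker lists of other cells had 1 to 6 tested members each, and *Tagln* was their 1 call. Their summed level was 0.187 to 43.3 at E9.5 and 0 to 5.09 at E10 for mesenchyme (6 of 16 at 0), 77.5 to 126 and 88.9 to 135 for neural cells (12 of 16), 3.83 to 35.1 and 0.783 to 6.43 for epithelium (7 of 13), 42.9 to 74.3 and 13.1 to 53.2 for germ cells (7 of 11) and 214 to 433 and 195 to 271 for endocardium, yolk sac and liver vessels (3 of 12). Of 5 tested sex-linked genes, 2 were higher before adjustment, among them *Eif2s3y*, 19.5 ± 3.73 and 74.9 ± 44.6 (2.01 ± 0.44, adjusted p = 0.0923).

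The stage difference varied with the GC content of the genes, while the mean GC content of the counted transcripts per library was 49.3% ± 0.165 at E9.5 and 49.6% ± 0.396 at E10 (two-sided exact permutation p = 0.229), with E10 replicate 10 (49.13%) below 3 of the 4 E9.5 libraries. Across 10683 genes with an annotated sequence, Spearman's correlation between log2 fold change and the GC content of the transcripts was 0.227, a description in which all genes share the same 7 libraries. The median log2 fold change was -0.12 in the lowest of 10 bins by GC content (median 41.3%) and 0.45 in the bin with the highest (59.2%). The 15 increased genes had a median GC content of 57.5%, the 9 decreased genes 51.5% and all genes 50.4%. With offsets for GC content and transcript length in the same fit, chosen after seeing the data, 18 genes were called, 7 higher and 11 lower, 12 of them among the 24. All 24 kept their direction. *Hspa1a*, *Fos*, *Bmp4*, *Cotl1*, *Slc44a2*, *Lgals1*, *Ybx1*, *Hmgn2*, *Eno1b*, *Glrx5*, *Ppat* and *Akap5* stayed below an adjusted p of 0.05, while *Tie1* (0.83, edgeR adjusted p = 0.0832), *Plvap* (0.63, 0.0981), *Pvrl2* (0.69, 0.119), *Dock6* (0.70, 0.179), *Ctgf* (2.16, 0.0823), *Prtg* (-2.14, 0.0568), *Adam15* (0.89, 0.137), *Ncln* (1.55, 0.062), *Dnm2* (1.32, 0.0981), *Raly* (1.31, 0.104), *Ampd2* (1.68, 0.0832) and *Tagln* (-4.42, 0.0568) did not. With the offsets the venous and lymphatic median went from 0.97 to 0.70, the pan-endothelial median from 0.25 to 0.15, the immediate-early median from 0.42 to 0.08 and that of the collagens and laminins from 0.51 to 0.52. Among the uncalled genes named above, *Col18a1* went from 1.13 to 0.52 (edgeR adjusted p = 0.274), *Hspg2* from 1.32 to 0.71 (adjusted p = 0.275), *Col4a2* from 0.94 to 0.52 (adjusted p = 0.312), *Ephb4* from 1.19 to 0.66 (adjusted p = 0.265), *Eng* from 0.79 to 0.52 (adjusted p = 0.204) and *Egfl7* from 0.60 to 0.32 (adjusted p = 0.459). *Junb* went from 1.89 to 1.18 (edgeR adjusted p = 0.428). *Aldoa* grew instead, from -0.58 to -0.92, and passed with the offsets (edgeR adjusted p = 0.018). Among the genes that stayed called, *Hspa1a*, the largest rise, went from 3.50 to 2.90 (edgeR adjusted p = 0.0459). The part of base composition in these differences was not tested.

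**Figure D3:**
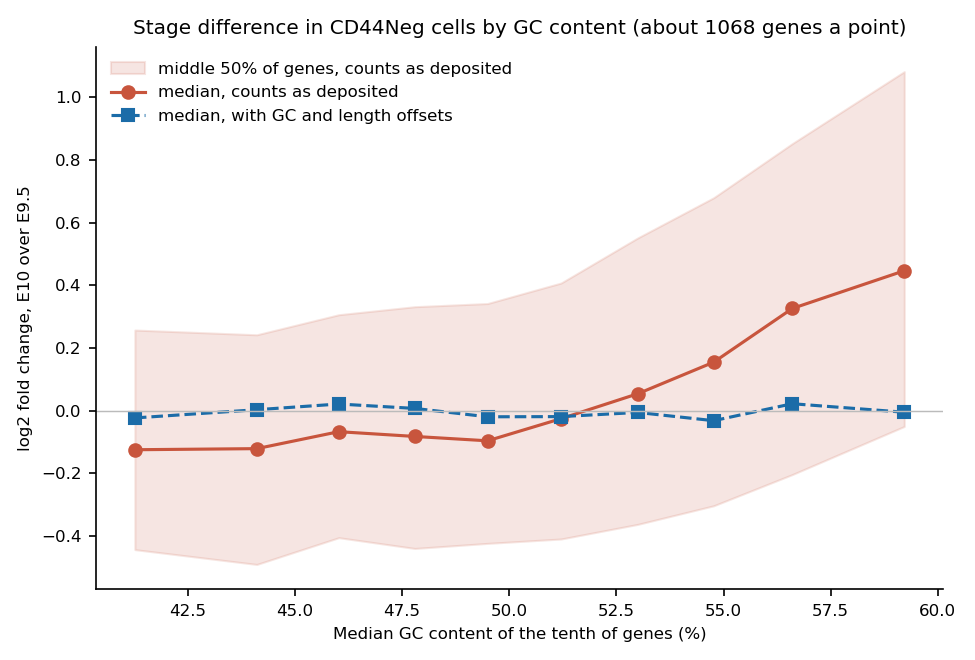
Median log2 fold change of E10 over E9.5 (vertical axis) in 10 equal bins of the tested genes ordered by GC content (horizontal axis, percent). Circles are the counts as deposited, with the middle 50% of genes shaded, and squares the fit with GC and length offsets. The circles run from -0.12 at a GC content of 41.3% to 0.45 at 59.2%, and the squares stay within 0.04 of 0.

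The CD44Low cells gave a second look at the same stages in separate libraries, though with the same label dates. They comprise CD44LowKitNeg and CD44LowKitPos cells with 1 library of each at E9.5 and 2 at E10. In a fit of all 22 libraries, 61 of 14609 genes (0.418%) differed between stages in the mean of both, 4 higher and 57 lower. Of the 15 genes increased in CD44Neg cells, 11 were higher in CD44Low cells and none was called. All 9 decreased genes were lower, although *Akap5* (-0.06 ± 0.96) and *Tagln* (-0.52 ± 1.06), the largest falls in CD44Neg cells, were lower by less than the SE. *Prtg* (-6.09 ± 1.28, edgeR adjusted p = 0.0299) and *Hmgn2* (-1.14 ± 0.25, adjusted p = 0.0415) were called. With the 6 CD44Low libraries fitted alone edgeR called no gene, with 999 at an unadjusted p below 0.05, so both calls were lost. *Hspa1a* lay at 6.74 and 24.1 normalized CPM in the E9.5 CD44Low libraries and at 118 to 345 in those of E10 (4.2 ± 0.98, adjusted p = 0.061). *Fos* lay at 8.02 and 13.8 and at 18.1 to 90.5 (2.35 ± 0.66, adjusted p = 0.157), and *Lgals1* at 239 and 272 and at 63.7 to 189 (-1.26 ± 0.29, adjusted p = 0.0533). *Bmp4* (-1.21 ± 0.94), *Dock6* (-0.32 ± 0.60), *Pvrl2* (-0.25 ± 0.56) and *Plvap* (-0.15 ± 0.33) had the opposite sign in this mean, none of them called, and the populations lay on different sides of 0. With each population taken alone in the same fit, a contrast added after seeing the data, all 15 increased and all 9 decreased genes had the sign of CD44Neg cells in CD44LowKitNeg cells, against 11 of 15 and 8 of 9 in CD44LowKitPos cells. *Plvap* lay at 676 normalized CPM at E9.5 and at 879 and 1081 at E10 in CD44LowKitNeg cells, and at 416 and at 194 and 271 in CD44LowKitPos cells. *Dock6* lay at 49.0 and at 93.6 and 105 in CD44LowKitNeg cells, and at 36.3 and at 13.2 and 9.72 in CD44LowKitPos cells. *Bmp4* was low in both, at 3.72 and at 5.30 and 5.95 in the first and at 5.66 and at 0 and 1.31 in the second.

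Several endothelial and matrix lists showed the same split, while other lists did not. In CD44LowKitNeg and CD44LowKitPos cells the medians were 0.75 and 0.16 for HOX genes and 0.40 and 0.49 for haematopoietic factors. They were -1.33 and -0.73 for the G2/M list and -0.14 and 0.30 for the S phase list. The median log2 fold change in CD44LowKitNeg cells was 0.53 for the venous and lymphatic list, 0.53 for collagens and laminins, 0.38 for the arterial list, 0.19 for the VEGF and tip cell list and 0.11 for the pan-endothelial list, positive as in CD44Neg cells. In CD44LowKitPos cells all 5 medians were negative, and their size is not given because members with no count at E10 enter them. The immediate-early median was 0.60 in CD44LowKitNeg and 0.58 in CD44LowKitPos cells. Each of these contrasts rests on 1 E9.5 library, and the differences between medians were not tested.

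**Figure D4:**
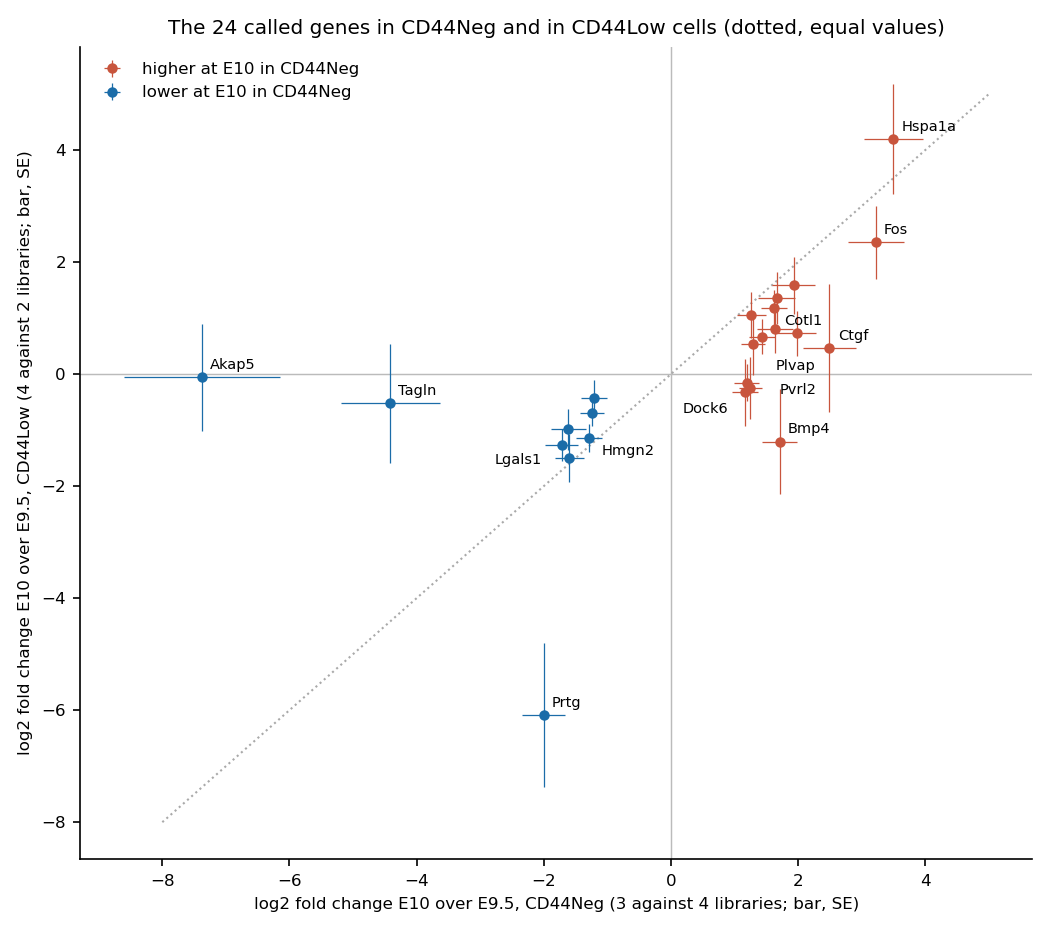
Log2 fold change of E10 over E9.5 for the 24 called genes in CD44Neg cells (horizontal axis, 3 against 4 libraries) and in CD44Low cells (vertical axis, 4 against 2). Points are genes, bars the SE and the dotted line equality. *Hspa1a* (3.50 and 4.2) lies near the line, while *Bmp4* (1.71 and -1.21) lies below 0 in the mean of CD44LowKitNeg and CD44LowKitPos cells, where its levels were at most 5.95 normalized CPM.

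The difference between the stage effects of the populations was tested itself and passed for 13 of 14609 genes (0.089%), none of them among the 24. All 13 fell from E9.5 to E10 in the mean of the CD44Low populations, none was called in CD44Neg cells in that fit, and none passed in CD44LowKitNeg cells alone, where 7 were lower and 6 were not. All 13 calls rested on the E9.5 CD44LowKitPos library, without which edgeR called none, with 518 at an unadjusted p below 0.05, with the contrast then on CD44LowKitNeg alone. Without the E9.5 CD44LowKitNeg library 71 genes passed. *Stab1* had 29.7 normalized CPM in the E9.5 CD44LowKitPos library, 0 in both E10 CD44LowKitPos libraries, and 78.2, 96.3 and 125 in the CD44LowKitNeg libraries at E9.5 and E10 (interaction 6.35 ± 0.75 on the log2 scale, edgeR adjusted p = 0.000829). *Gja5*, the arterial connexin 40, had 99.8 in the E9.5 CD44LowKitPos library, 1.71 and 5.52 at E10, and 220.8, 255 and 319 in CD44LowKitNeg cells (2.84 ± 0.53, adjusted p = 0.0422), against 47.2 to 89.6 at E9.5 and 83.0 to 122 at E10 in CD44Neg cells.

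At E11 the CD44Neg libraries gave values for the same genes that entered no test here. *Cotl1* lay at 220.4 ± 13.9 normalized CPM (n = 3), *Tie1* at 263 ± 61.9, *Plvap* at 1356 ± 152 and *Hspa1a* at 106 ± 31.9, beside E10 means of 199, 296, 1401 and 135. *Fos* lay at 22.3 ± 12.6, *Bmp4* at 48.2 ± 28.1, *Ctgf* at 51.7 ± 30.6 and *Ampd2* at 43.1 ± 4.59, between the means of E9.5 and E10. *Prtg* lay at 13.2 ± 5.90 and *Ybx1* at 222 ± 38.5, below both, and *Lgals1* at 97.4 ± 26.9. *Hmgn2* lay at 491 ± 142 and *Eno1b* at 67.0 ± 9.88, between both.

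**Figure D5:**
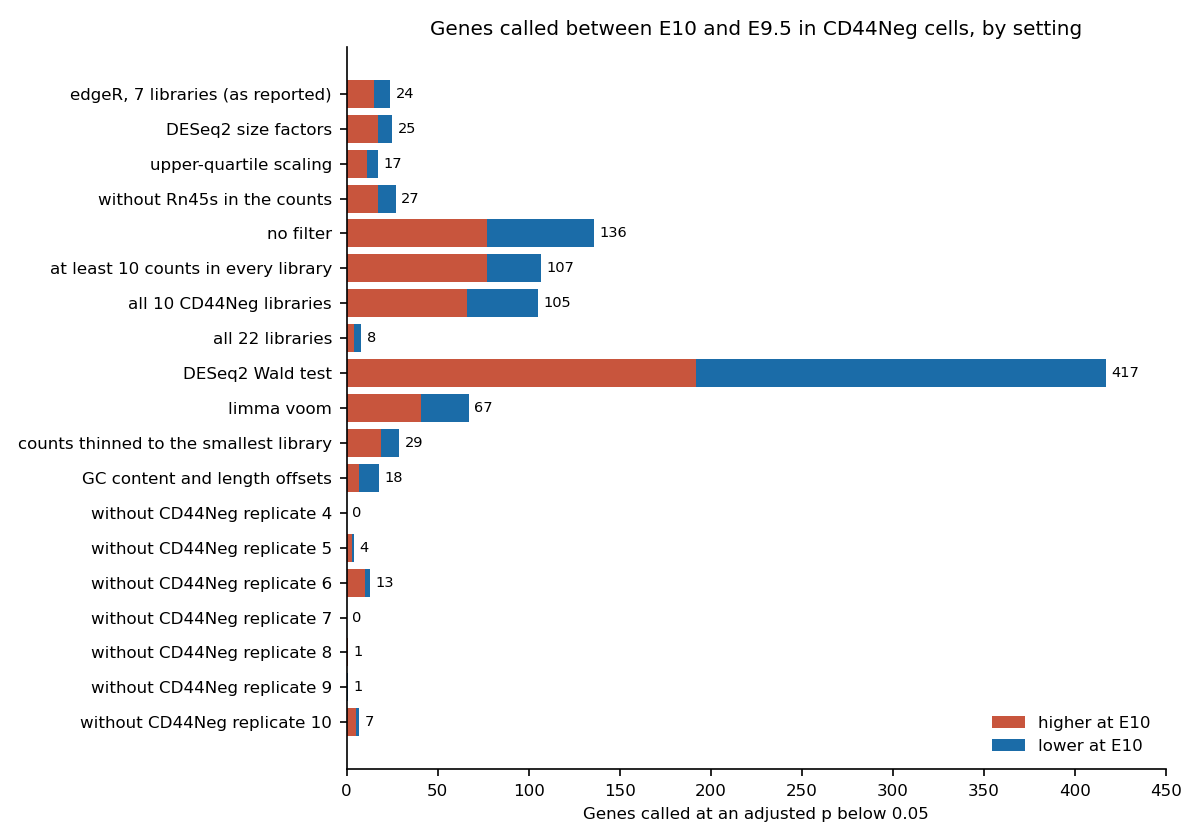
Number of genes called between E10 and E9.5 in CD44Neg cells at an adjusted p below 0.05 (horizontal axis) under each setting (vertical axis), split into genes higher and lower at E10. The count is 24 as reported, 417 with DESeq2 and 0 without E9.5 replicate 4 or replicate 7.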

How the data were processed

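Cells were sorted from dissected AGM regions at 25 cells per library, with SMART-Seq2 amplification over 14 PCR cycles. The authors clipped adaptors, aligned the rest with RNA STAR, and htseq-count gave the number of reads per gene. The deposited table holds raw counts, with no scaling, for 24454 gene symbols. The submitters' processing notes name FastQC, HTSeq and mm10, and the strand setting and the handling of reads shared between genes are not given in the sources used here. Every column was matched to a library by its label, and 0 columns were left unassigned. The planned share of mitochondrial counts was not analysed here, and some genes that the naming rule below selects are not reported here.

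Low genes were removed by filterByExpr of edgeR (count 10, total 15), counts scaled by TMM, and E10 compared with E9.5 over the 7 CD44Neg libraries with edgeR's quasi-likelihood test and Benjamini-Hochberg adjustment, called at an adjusted p under 0.05. Standard errors were derived from the F statistic. CD44Low cells and the difference between populations were tested in 1 fit of all 22 libraries in 9 groups. Levels are CPM after TMM scaling over all 22 libraries, which places E10 relative to E9.5 0.07 lower on the log2 scale than the scaling of the 7. A count of 0 allows 3 counts, 0.442 to 0.726 normalized CPM in these libraries. Reads carry no molecular identifiers, so floors and counting intervals cover counting error only. GC content and length came from GENCODE vM21, promoters and coordinates from RefSeq (GRCm38.p6). R 4.3.3, edgeR 4.0.16, limma 3.58.1, DESeq2 1.42.0 and Python 3.11.15 with matplotlib 3.10.9 were used, and the steps were tested on simulated data.

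The text names the sorting markers, the 12 largest rises and falls among called genes without overlap and with a mean of at least 10 normalized CPM, called list members (at most 4 a list) and, in lists without calls, the 2 members with the most counts. *Pvrl2*, *Dock6* and *Akap5* were called outside this rule, and other genes were named after their values were seen. The comparison, the 37 gene lists (794 of 811 entries in the table) and the alternatives were chosen with earlier results of these data known. The alternatives were other scalings, filters, sets of libraries, tools and thresholds, thinned counts, other distances, leaving out each library and, chosen after seeing the data, GC and length offsets and leaving out the E9.5 CD44Low libraries in the test between populations and taking each CD44Low population alone.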

Additional observations from a re-analysis of the deposited data

Results flagged for a closer look

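In a group of 4 libraries, 1 library lay far from the other 3 in 12 of 125 checks of E9.5 values, where chance gives about 1 in 20. E9.5 replicate 6 was the distant library for *Gsk3b* (1111 normalized CPM), *Ets1* (691), *Adam10* (639.5), *Asns* (169), *Egr1* (9.71) and the number of detected genes (10825). Replicate 5 was distant for *Robo4* (73.1), *Ncln* (38.5) and *Hk2* (27.4), replicate 7 for *Ybx1* (945) and *Lgals1* (374), and replicate 4 for *Slc9a3r2* (189). Of these genes *Ncln*, *Ybx1* and *Lgals1* were called, and in each the distant E9.5 library still lay apart from all E10 libraries.

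The log2 fold change of E10 over E9.5 in CD44Neg cells less that in CD44Low cells passed edgeR's interaction test for 13 genes in the fit of 22 libraries. All 13 fell in the mean of the CD44Low populations by that fit, and none was called in CD44Neg cells. In CD44LowKitNeg cells alone 7 were lower and none passed, and without the E9.5 CD44LowKitPos library the interaction test called 0 genes by edgeR, with 518 at an unadjusted p under 0.05. On the log2 scale the differences were 7.13 for *Sparcl1*, 6.81 for *Igfbp3*, 6.35 for *Stab1*, 5.54 for *Cttnbp2nl*, 4.84 for *1810011O10Rik*, 4.59 for *Sulf2*, 4.15 for *Rapgef4*, 4.09 for *Sipa1l2*, 4.07 for *Akap12*, 3.58 for *Plpp3*, 2.84 for *Gja5*, 2.19 for *Anxa2* and 1.39 for *Icam2*. *Sparcl1*, *Igfbp3*, *Stab1*, *Cttnbp2nl* and *1810011O10Rik* had no count in either E10 CD44LowKitPos library, so their sizes and order are not exact. For *Sparcl1* the E9.5 CD44LowKitPos library had 39.8 normalized CPM and both E10 CD44LowKitPos libraries 0, and for *Anxa2* it had 385 against 11.1 and 23.8. In CD44Neg cells *Anxa2* lay at 733 to 811 at E9.5 and 473 to 622 at E10.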

How the results depend on the processing

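The 24 called genes kept their direction in all 430 values of a gene under an alternative setting, of which 188 missed the threshold. Because the stages did not overlap for these genes, leaving out 1 library could hardly turn their direction. The number called was 25 with DESeq2 size factors, 17 with upper-quartile scaling, 27 without *Rn45s*, 29 with thinned counts and 18 with GC and length offsets (38.9% of them higher at E10, against 62.5%). It was 136 without a filter, 107 with 10 or more counts in each library (72% higher), 105 with all 10 CD44Neg libraries, 67 with limma voom, 417 with DESeq2's Wald test (46% higher), which called all 24, and 8 in the fit of all 22 libraries (50% higher). At an adjusted p under 0.01 edgeR called 0, with 1461 genes at an unadjusted p under 0.05, limma voom 0 and DESeq2 181. Leaving out 1 library gave 0 to 13. The cause was not tested.

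In CD44Low cells 61 genes were called, 224 without a filter, 22 at 0.01, 0 with the 6 libraries alone, and 4 to 98 without 1 library, where the loss of an E9.5 library left the other population alone. The test between populations called 13 genes, 103 without a filter, 4 at 0.01 and 0 to 71 without an E9.5 CD44Low library. The distance between less within stages, 13, was 8.0 to 21.5 without 1 library, with exact permutation p = 0.1 to 0.2, and with 6 libraries no test could pass 0.05. Of 573 list medians, 24 moved beyond the spread between libraries.

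Among named genes that were not called, 39 of 1732 values under an alternative setting turned direction. With limma voom the log2 fold change was -0.0305 for *Kit*, -0.0198 for *Cdkn1c*, 0.85 for *Hbb-y*. With GC and length offsets the log2 fold change was -0.24 for *Gja4*, -0.0397 for *Flt4*, -0.33 for *Cdkn1c*, -0.18 for *Idh2*, 0.017 for *Hdac1*, -0.43 for *Nes*, 0.071 for *Stmn2*. In the fit of 22 libraries the log2 fold change was -0.0016 for *Cdkn1c*, -0.0024 for *Idh2*. With the filter of 10 counts the log2 fold change was 0.016 for *Hdac1*, 0.019 for *Stmn2*. Without 1 library, these genes turned direction within ranges of -0.10 to 0.51 for *Kit*, -0.21 to 0.0202 for *Nrp1*, -0.44 to 0.12 for *Ctnnb1*, -0.32 to 0.10 for *Slc9a3r2*, -0.12 to 0.0605 for *Slc2a1*, -0.19 to 0.44 for *Cdkn1c*, -0.30 to 0.026 for *Hif1a*, -0.20 to 0.11 for *Hdac1*, -0.37 to 0.42 for *Nes*, -0.25 to 0.23 for *Stmn2*, -0.58 to 0.12 for *Npr3*, -0.38 to 0.10 for *Adam10*, -0.39 to 0.003 for *Fdps* and -1.21 to 0.20 for *Hbb-y*. No paired analysis was possible because the groups compared share no replicate number.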
